A study of Mus musculus with 12 samples.

Results

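The 40 genes described here encode the proteins that fuse and recycle vesicles: the SNAREs, the synaptotagmins, the priming factors, the proteins of the synaptic vesicle itself, the retrieval factors, and NSF with its SNAP adaptors. They were taken from a list of names, written with earlier results of these data known. Each was represented by the probe set annotated to it alone that had the highest mean over the 12 arrays. All 40 passed the filter on dim probe sets, out of 11639 genes that did so and 18193 genes with a probe set of their own. By their usual place of work 23 were grouped as synaptic, 13 as endosomal and other SNAREs outside the release step, and 4 as shared.

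At a nerve terminal, Stx1a and Snap25 on the plasma membrane wind together with Vamp2 on the vesicle, and the bundle pulls the membranes into contact. Calcium binding by synaptotagmins triggers the final step, complexins hold and assist the assembled bundle, and Unc13a and Rims1 make vesicles ready for it. NSF and the SNAP adaptors take spent bundles apart, and a related set of syntaxins and VAMPs carries out fusion between endosomes, lysosomes and the Golgi in every cell.

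RNA came from the prefrontal cortex of adult C57BL/6J mice kept under 12 h of light and 12 h of dark, without any further treatment. Brains were taken at ZT3 and ZT9 in the light and at ZT15 and ZT21 in the dark, ZT being hours after lights on, from 3 separate mice at each time. Each mouse was measured on 1 Affymetrix Mouse430_v2 array. The question was which transcripts of the undisturbed cortex vary over the day, and 4 times 6 h apart describe the profile of 1 day only, without a second cycle.

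Over all probe sets 3 arrays stood apart. ZT9 mouse 1, ZT15 mouse 3 and ZT21 mouse 3 had the highest scores on the first principal component, which took 39.1% of the variance. The same 3 arrays had the largest differences between the 3′ and the 5′ control probe sets of Gapdh, at 0.31, 0.26 and 0.23 log2, against 0.10 to 0.19 on the other 9 arrays. For Actb the 3′ minus 5′ difference was 0.66 to 0.70 log2 at ZT3, 0.69 to 0.95 at ZT9, 0.67 to 0.84 at ZT15 and 0.79 to 0.88 at ZT21, so every ZT21 array was above every ZT3 array in this measure, which is larger in degraded RNA. Counts of calls over the members and the differences of called members are given with and without those 3 arrays. On the arrays then left, ZT21 mice 1 and 2 still had Actb differences of 0.79 log2 each, above every ZT3 array. The part of this in the ZT21 minus ZT3 differences was not tested. The arrays also differed in overall level. Mean intensity was 395 on ZT21 mouse 3 and 347 on each of ZT21 mice 1 and 2. The median deviation over all tested probe sets was 0.07 log2 on ZT21 mouse 3, against −0.02 and −0.03. The part of this level in the values of single mice was not tested. Of 13 lists of cell type markers with 58 tested genes, the F-test called 2 genes, 1 excitatory and 1 endothelial (3.45%, beside 2.01% of all probe sets). Before adjustment 11 had a p under 0.05 in that test, beside 15.6% of all probe sets. Without the 3 arrays it called 13 (22.4%, beside 24.5%). All 8 neuronal markers passed the filter, the olfactory bulb markers Th, Eomes and Doc2g were below the filter, and the choroid plexus markers Ttr and Clic6 ran from 9.22 to 14.82 and from 6.85 to 8.05 log2 over the 12 arrays.

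Of the 40 members, 31 had a promoter in the RefSeq table of build GRCm38.p6. The 250 bases before the transcription start are shown for the 3 members with such an entry that differed between times, Syn1 on the minus strand of chromosome X at chrX:20920919-20921168, Stx12 on the minus strand at chr4:132884459-132884708 and Stx4a on the plus strand at chr7:127841558-127841807, which lies before a start 1165 bases inside the annotated gene. Capitals mark the cyclic AMP response element TGACGTCA, the only match in these 3 windows.
Syn1: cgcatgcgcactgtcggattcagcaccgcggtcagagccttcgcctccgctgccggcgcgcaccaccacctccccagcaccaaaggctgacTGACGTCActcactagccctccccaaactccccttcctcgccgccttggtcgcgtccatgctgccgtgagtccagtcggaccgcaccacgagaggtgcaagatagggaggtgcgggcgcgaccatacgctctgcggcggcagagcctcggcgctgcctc
Stx12: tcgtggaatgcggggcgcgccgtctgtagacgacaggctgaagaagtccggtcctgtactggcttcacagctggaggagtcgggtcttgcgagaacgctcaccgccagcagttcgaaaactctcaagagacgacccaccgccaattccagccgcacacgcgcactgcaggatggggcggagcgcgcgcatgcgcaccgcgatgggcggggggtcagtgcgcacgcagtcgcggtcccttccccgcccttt
Stx4a: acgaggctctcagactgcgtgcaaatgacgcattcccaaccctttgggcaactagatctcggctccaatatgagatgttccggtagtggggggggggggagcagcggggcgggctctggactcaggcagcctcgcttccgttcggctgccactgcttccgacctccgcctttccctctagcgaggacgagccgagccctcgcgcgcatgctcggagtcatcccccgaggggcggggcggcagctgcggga

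The motif of Syn1 began 159 bases before the start. On both strands of the same window, TGACGTCA was found in 1.55% of all 32851 promoters and in 1 of the 41 promoters of the 31 members. The E-box CACGTG, which the clock proteins CLOCK and BMAL1 bind, was found in 6.02% of all promoters. Among the members it was found in 5 of the 41 promoters, in 5 members, Napa, Nsf, Stx6, Sv2b and Vamp4. The D-box TTATGTAA was found in 0.819% of all promoters and in no member. Of the 5 members with an E-box 0 passed the F-test of limma, Nsf and Sv2b had an unadjusted p under 0.05, and their dark minus light differences lay between −0.20 and 0.11 log2. These matches describe letters in a window and no binding was measured.

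Over the 4 times the members varied little. The distance between the highest and the lowest time mean of a gene had a median of 0.25 log2 over the 40 members (0.24 synaptic, 0.28 endosomal and 0.25 shared), beside 0.26 over all genes and 0.28 over all probe sets. It was under 0.3 log2 in 25 members and under 0.5 log2 in 38, between 0.07 for Sv2a and 0.59 for Stx12. Mice of the same time differed with an SD of 0.14 log2 in the median member, and between 0.08 and 0.26 over all of them.

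**Figure D1:**
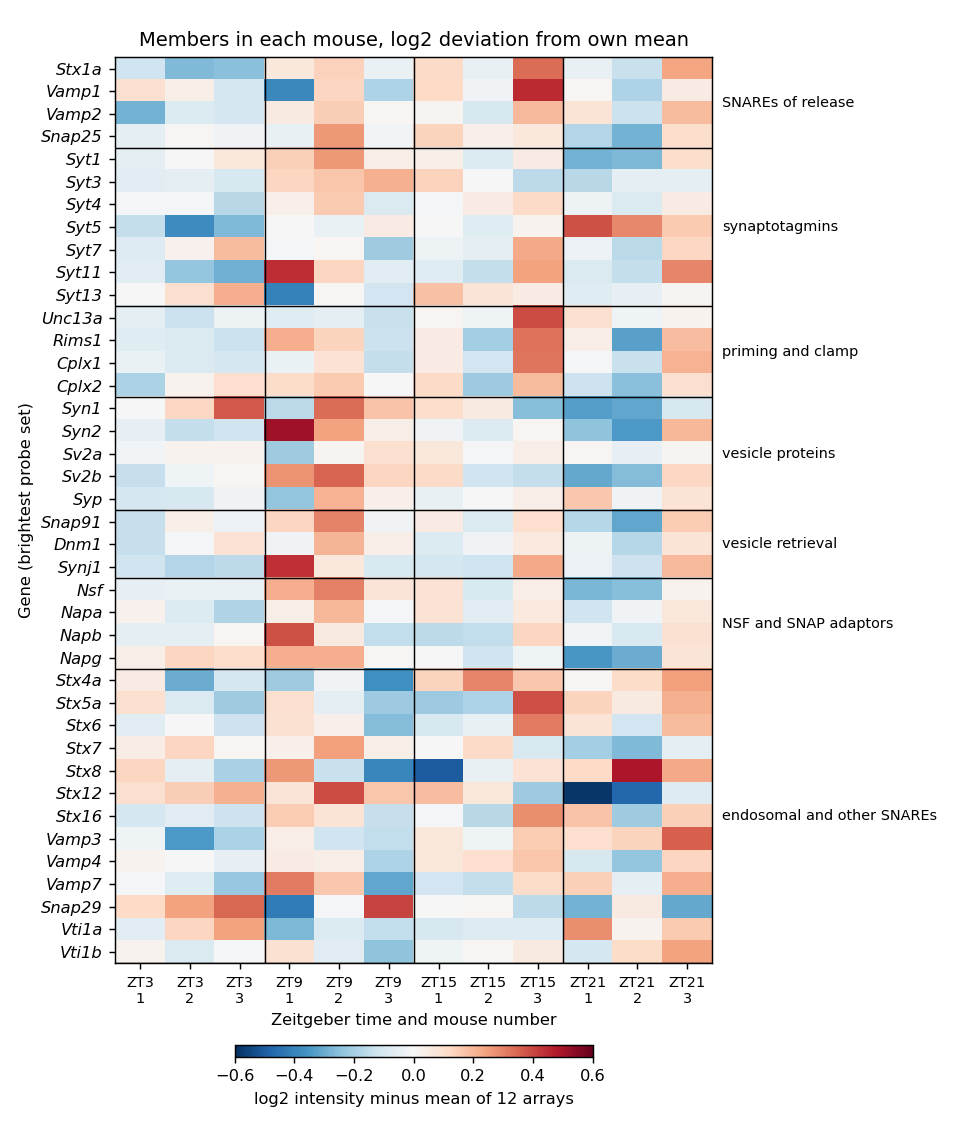
The log2 intensity of each of the 40 members in each of the 12 mice, as the deviation from the member's own mean, with rows grouped by role, columns by zeitgeber time, and colours cut at 0.6 log2. ZT21 mouse 2 had 8 of 40 members above their own mean and ZT21 mouse 3 had 35 of 40, and Stx12 and Syt5 show the clearest opposite changes at ZT21. The median deviation over all tested probe sets was −0.03 log2 in ZT21 mouse 2 and 0.07 in ZT21 mouse 3.

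The moderated F-test of limma over the 4 times, at an adjusted p under 0.20, called 1 member, Syt5, which is 2.5% of the 40. The background was 2.01% of all probe sets and 2.14% of all genes. Before adjustment 7 members had a p under 0.05 (Syt5, Sv2b, Stx4a, Stx12, Vamp3, Vti1a and Nsf), 2 of them synaptic, 4 endosomal and 1 shared, beside 15.6% of all probe sets. In the contrast of the dark times with the light times, 2 members were higher and 1 lower, beside 1.89% of probe sets called higher and 0.835% called lower, or 2.65% of genes in either direction. Between ZT21 and ZT3, 2 were higher and 2 lower, beside 7.62% of probe sets called higher and 4.69% called lower, or 11.4% of genes, so that the 10% of members called lies near the background. No member was called between ZT15 and ZT3, where the background was 2.64%, or between ZT21 and ZT9, where it was 0.0582%. An unadjusted p under 0.05 was found in 4 members between ZT15 and ZT3, beside 12.6% of all probe sets, and in 13 (32.5%) between ZT21 and ZT9, beside 13.3%.

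These counts depended on the 3 arrays that stood apart. Without them the F-test called 11 members (24.5% of all probe sets), the dark minus light contrast 11 (17.2%), ZT21 minus ZT9 13 (27.9%) and ZT21 minus ZT3 9 (27.2%), while ZT15 minus ZT3 still called 0 (1.56%). The shares of members were then 27.5%, 27.5%, 32.5%, 22.5% and 0%. An adjusted p also falls when more of all probe sets have small p-values. A smaller adjusted p on the 9 arrays left is therefore not by itself firmer evidence for a member. Of the 13 members called between ZT21 and ZT9 in those 9 arrays, 11 were lower at ZT21, among them Stx12 (−0.81 log2), Syn1 (−0.57), Sv2b (−0.52), Nsf (−0.46), Napg (−0.43), Syn2 (−0.43), Syt1 (−0.42) and Snap25 (−0.35), and 2 were higher, Stx8 (0.57) and Syt5 (0.33). This contrast then rested on ZT9 mice 2 and 3 and ZT21 mice 1 and 2, a set chosen after seeing the data. With all 12 arrays, 2202 of all probe sets were lower and 1008 higher at ZT21 than at ZT9 at an unadjusted p under 0.05. Leaving out ZT21 mouse 3 alone gave 7 members in the F-test, 7 in dark minus light, 13 in ZT21 minus ZT9 and 6 in ZT21 minus ZT3, while 2897, 1698, 3865 and 2647 of all 24088 probe sets were called. Conversely, each call with all 12 arrays was lost when ZT3 mouse 2, ZT3 mouse 3, ZT21 mouse 1 or ZT21 mouse 2 was left out.

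The SNAREs of release come first by role. Stx1a, the syntaxin of the presynaptic membrane, had log2 intensities of 11.59, 11.44 and 11.46 at ZT3, 11.77, 11.85 and 11.67 at ZT9, 11.82, 11.66 and 12.04 at ZT15, and 11.67, 11.57 and 11.94 at ZT21. All 3 ZT15 mice lay above all 3 ZT3 mice, by 0.35 ± 0.12 log2 in the mean (SE), and the adjusted p of the contrast was 0.286. Its probe set may also bind related transcripts. The second probe set of Stx1a was also highest at ZT15 and lowest at ZT3, by 0.30 ± 0.14 log2 (SE, adjusted p of the contrast 0.404).

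Snap25, its partner on the same membrane, read 14.17, 14.24 and 14.21 at ZT3, 14.19, 14.49 and 14.21 at ZT9, 14.37, 14.26 and 14.30 at ZT15, and 14.06, 13.95 and 14.34 at ZT21. The 4 times overlapped apart from ZT15 and ZT3, and the F-test gave an adjusted p of 0.584. In the second probe set of Snap25 ZT21 minus ZT3 was 0.31 ± 0.20 log2 (SE), against −0.09 ± 0.12 in the brightest. Vamp2, the vesicle SNARE, read 12.40, 12.60 and 12.58 at ZT3, 12.73, 12.83 and 12.69 at ZT9, 12.70, 12.58 and 12.88 at ZT15, and 12.76, 12.55 and 12.87 at ZT21. Its ZT3 mice were below its ZT9 mice without overlap, and its F-test gave an adjusted p of 0.478. The second probe set of Vamp2 was instead lowest at ZT9 and highest at ZT21, spanning 0.19 log2 (F-test adjusted p = 0.812). Vamp1, the close relative of Vamp2, spanned 0.33 log2 between ZT15 and ZT9 with an adjusted p of 0.492.

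Among the synaptotagmins Syt5 was the member with the clearest time course. It read 9.13, 8.90 and 9.01 at ZT3, 9.28, 9.24 and 9.33 at ZT9, 9.28, 9.21 and 9.30 at ZT15, and 9.66, 9.57 and 9.43 at ZT21. All ZT21 mice were above all others and all ZT3 mice below all others, with ZT9 and ZT15 level in between. Syt5 rose by 0.54 ± 0.09 log2 (SE) at ZT21 relative to ZT3, a 1.45-fold difference (95% interval 0.33 to 0.74 log2, limma adjusted p = 0.101), and its F-test gave an adjusted p of 0.142. In dark relative to light it was higher by 0.26 ± 0.07 log2 (adjusted p = 0.169), although ZT9 and ZT15 means were 9.28 ± 0.04 and 9.26 ± 0.05 (SD, n = 3 each). Syt5 had only 1 tested probe set. Without the 3 arrays its ZT21 minus ZT3 difference was 0.60 ± 0.10 log2 (adjusted p = 0.015) and its dark minus light difference 0.28 ± 0.07 (adjusted p = 0.079).

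Syt1, the main calcium sensor of fast release, read 12.99, 13.04 and 13.11 at ZT3, 13.19, 13.31 and 13.09 at ZT9, 13.08, 12.97 and 13.10 at ZT15, and 12.77, 12.78 and 13.15 at ZT21. A pair of ZT21 mice lay below every other mouse and the third, ZT21 mouse 3, above most, and the ZT21 minus ZT9 difference of −0.30 ± 0.11 log2 (SE) had an adjusted p of 0.313. Syt3 read 7.26, 7.27 and 7.23 at ZT3, 7.46, 7.49 and 7.54 at ZT9, 7.46, 7.33 and 7.17 at ZT15, and 7.16, 7.27 and 7.27 at ZT21. Its ZT21 mice were below its ZT9 mice without overlap, by −0.26 ± 0.09 log2 with an adjusted p of 0.282. The other 4 of this family, Syt4, Syt7, Syt11 and Syt13, spanned 0.11 to 0.36 log2, with F-test adjusted p of 0.757, 0.827, 0.479 and 0.366.

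The priming and clamp genes Unc13a, Rims1, Cplx1 and Cplx2 spanned 0.16 to 0.21 log2, with adjusted p between 0.503 and 0.811. Unc13a, which primes vesicles and was chosen here after its values were seen, read 9.78, 9.70 and 9.80 at ZT3, 9.76, 9.77 and 9.70 at ZT9, 9.84, 9.80 and 10.22 at ZT15, and 9.93, 9.81 and 9.85 at ZT21. It was the only member with all 6 dark mice above all 6 light mice, but only just, as the lowest dark mouse and the highest light mouse both round to 9.80. The dark minus light difference of 0.16 ± 0.08 log2 (SE) did not pass the test (adjusted p = 0.352), and ZT15 mouse 3 alone, 1 of the 3 arrays that stood apart, reached 10.22.

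**Figure D2:**
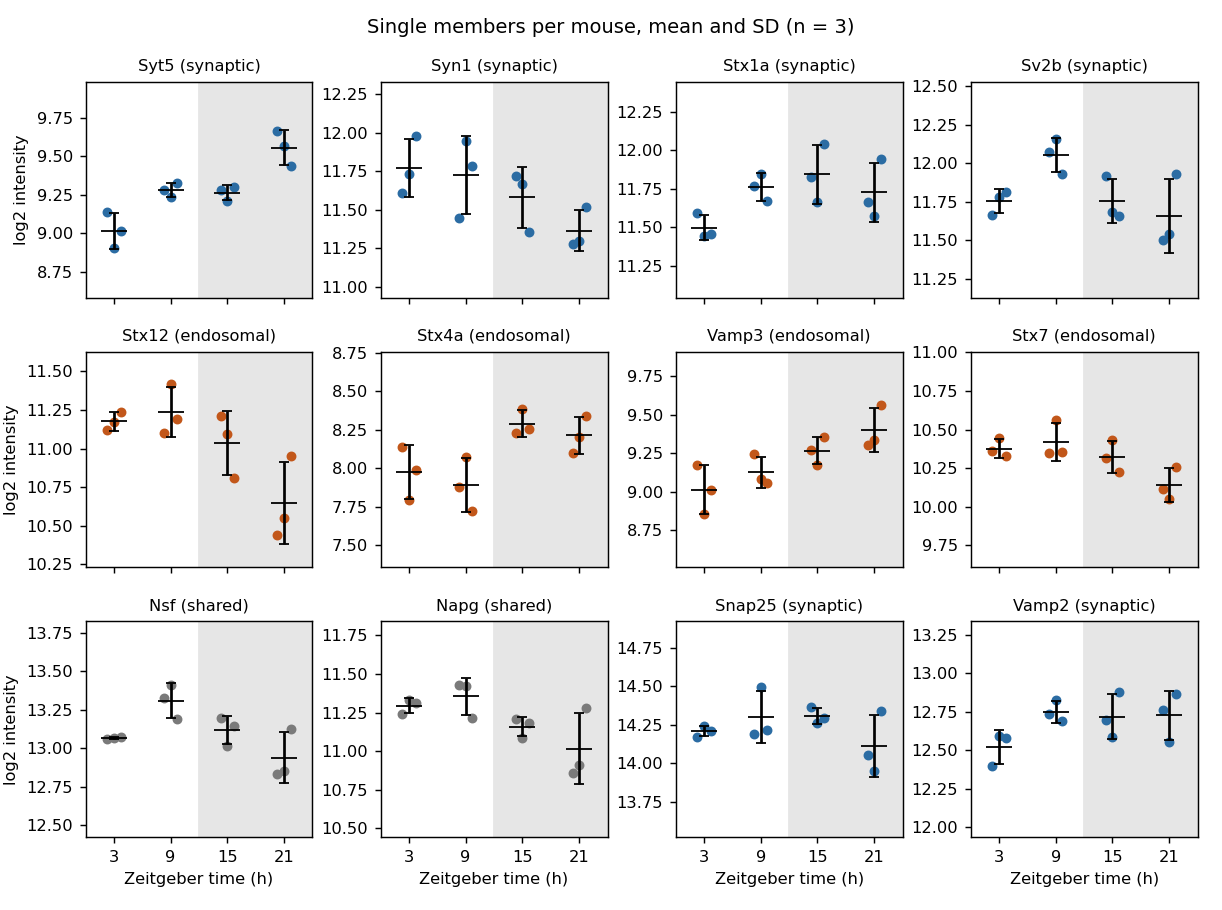
Log2 intensity of 12 members in each mouse (points) against zeitgeber time in h, with the mean and SD of the 3 mice (black) and the dark period shaded; every panel spans the same distance on its vertical axis. Syt5 and Vamp3 were highest at ZT21, Stx12, Syn1, Stx7 and Napg lowest there, and ZT21 mouse 3 lay above the other 2 ZT21 mice in Stx12, Nsf, Napg and Sv2b.

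Of the vesicle proteins, Syn1, the synapsin that tethers vesicles to the cytoskeleton, read 11.61, 11.73 and 11.98 at ZT3, 11.45, 11.95 and 11.78 at ZT9, 11.72, 11.67 and 11.36 at ZT15, and 11.28, 11.30 and 11.52 at ZT21. All ZT21 mice were below all ZT3 mice, and the lowest mice within ZT9 and ZT15 were ZT9 mouse 1 and ZT15 mouse 3, on arrays that stood apart. ZT21 mouse 3, on the third such array, was instead the highest of its time. Syn1 fell by 0.41 log2 at ZT21 relative to ZT3 (SE 0.15, 0.754 of the ZT3 level, adjusted p = 0.190), and without the 3 arrays that stood apart by 0.48 log2 (adjusted p = 0.040). The fall rested on 1 probe set.

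Sv2b, a glycoprotein of the vesicle membrane, read 11.67, 11.78 and 11.82 at ZT3, 12.07, 12.16 and 11.93 at ZT9, 11.92, 11.68 and 11.66 at ZT15, and 11.50, 11.54 and 11.93 at ZT21. It was highest at ZT9 and lowest at ZT21, with ZT21 minus ZT9 at −0.40 ± 0.13 log2 (SE) and an adjusted p of 0.266. Syn2 read 12.04, 11.95 and 11.97 at ZT3, 12.60, 12.33 and 12.12 at ZT9, 12.07, 12.01 and 12.10 at ZT15, and 11.85, 11.74 and 12.29 at ZT21. It had the same peak, with ZT21 minus ZT9 at −0.39 ± 0.15 log2 (SE) and an adjusted p of 0.303, and its ZT9 mice lay above all ZT3 and ZT15 mice but overlapped ZT21 through ZT21 mouse 3. Sv2a, the relative of Sv2b, and the abundant vesicle protein Syp spanned 0.07 and 0.15 log2, with adjusted p of 0.949 and 0.781.

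The retrieval genes take membrane back after release: Dnm1 pinches off the new vesicle, Synj1 strips its coat and Snap91 helps to build it. They spanned 0.11 to 0.29 log2, and all 3 were highest at ZT9. None passed a test (F-test adjusted p 0.560 to 0.820), and their ZT21 minus ZT9 differences were −0.24 log2 for Snap91, −0.13 for Synj1 and −0.11 for Dnm1.

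NSF and its adaptors, which serve synaptic and endosomal fusion alike, were all highest at ZT9 and passed no test by their brightest probe sets. Nsf read 13.06, 13.07 and 13.07 at ZT3, 13.33, 13.41 and 13.19 at ZT9, 13.19, 13.01 and 13.15 at ZT15, and 12.83, 12.85 and 13.13 at ZT21. Its ZT9 mice lay above its ZT21 mice without overlap, and ZT21 minus ZT9 was −0.37 ± 0.10 log2 (SE, adjusted p = 0.239). Napg read 11.24, 11.33 and 11.31 at ZT3, 11.43, 11.42 and 11.21 at ZT9, 11.21, 11.09 and 11.18 at ZT15, and 10.86, 10.91 and 11.28 at ZT21. ZT21 mouse 3 was level with the ZT3 mice and the other ZT21 mice were below all of them, and ZT21 minus ZT9 was −0.34 ± 0.12 log2 (SE, adjusted p = 0.280). In other probe sets of Napg that difference was −0.46 ± 0.27 and −0.02 ± 0.16 log2 (SE). Napa and Napb spanned 0.16 and 0.15 log2, with adjusted p of 0.654 and 0.801.

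Among the endosomal and other SNAREs the called differences ran in both directions. Stx12, the syntaxin of recycling endosomes, read 11.12, 11.17 and 11.24 at ZT3, 11.10, 11.42 and 11.19 at ZT9, 11.21, 11.09 and 10.81 at ZT15, and 10.44, 10.55 and 10.95 at ZT21. All ZT21 mice were below all ZT3 and ZT9 mice. ZT9 mouse 1 and ZT15 mouse 3 were again the lowest of their times, while ZT21 mouse 3 was the highest of its time. Stx12 fell by 0.53 log2 at ZT21 relative to ZT3 (SE 0.15, 0.693 of the ZT3 level, adjusted p = 0.151), and by 0.37 log2 in dark relative to light (SE 0.10, adjusted p = 0.194). In its second probe set ZT21 minus ZT3 was −0.21 ± 0.13 log2 (SE, adjusted p = 0.392). Without the 3 arrays the ZT21 minus ZT3 difference was −0.68 ± 0.10 log2 (adjusted p = 0.013) and the dark minus light difference −0.42 ± 0.08 (adjusted p = 0.045).

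Vamp3, the VAMP of recycling endosomes, moved the other way. It read 9.18, 8.85 and 9.01 at ZT3, 9.24, 9.08 and 9.06 at ZT9, 9.27, 9.18 and 9.35 at ZT15, and 9.30, 9.33 and 9.56 at ZT21. Its time means were in the order of the clock, with ZT3 lowest, and all ZT21 mice were above all ZT3 and ZT9 mice. Vamp3 rose by 0.39 ± 0.11 log2 (SE) at ZT21 relative to ZT3, a 1.31-fold difference (adjusted p = 0.151), and in dark relative to light the difference of 0.26 ± 0.08 log2 just missed the threshold (adjusted p = 0.203). Without the 3 arrays both differences were smaller, at 0.30 ± 0.11 log2 (adjusted p = 0.107) and 0.23 ± 0.08 (adjusted p = 0.146). More of all probe sets were then called in these contrasts, 27.2% and 17.2%. The 5 tested probe sets of Vamp3 gave ZT21 minus ZT3 differences of 0.13 to 0.56 log2, and 1 of the other 4 was also called (adjusted p = 0.175). Both called probe sets are of a kind that may bind other transcripts.

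Stx4a, the syntaxin of the plasma membrane for exocytosis outside the active zone, differed between dark and light. It read 8.14, 7.79 and 7.99 at ZT3, 7.88, 8.07 and 7.73 at ZT9, 8.23, 8.39 and 8.25 at ZT15, and 8.10, 8.20 and 8.34 at ZT21. All ZT15 mice were above all light mice, and 1 ZT21 mouse lay within the light range. Stx4a was higher in dark by 0.32 ± 0.09 log2 (SE), a 1.25-fold difference (adjusted p = 0.184), from its only tested probe set. On the 9 other arrays the difference was smaller and its SE larger, at 0.29 ± 0.10 log2. Its limma adjusted p there was 0.150, with 17.2% of all probe sets called in that contrast.

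Stx7, the syntaxin of late endosomes, read 10.36, 10.45 and 10.33 at ZT3, 10.35, 10.56 and 10.35 at ZT9, 10.32, 10.43 and 10.22 at ZT15, and 10.11, 10.05 and 10.26 at ZT21. Its ZT21 mice were below all ZT3 and ZT9 mice, though the ZT21 minus ZT9 difference of −0.28 ± 0.10 log2 (SE) had an adjusted p of 0.287. Vti1a, a SNARE between endosomes and the Golgi, read 7.71, 7.91 and 8.02 at ZT3, 7.51, 7.69 and 7.63 at ZT9, 7.68, 7.70 and 7.70 at ZT15, and 8.06, 7.80 and 7.93 at ZT21. Its means were 7.88, 7.61, 7.69 and 7.93 in the order of times, with ZT21 minus ZT9 at 0.32 ± 0.10 log2 (SE) and an adjusted p of 0.270. Other tested probe sets of Vti1a peaked at ZT3 and at ZT15, with ZT21 minus ZT9 at 0.12 ± 0.15 and 0.19 ± 0.19 log2 (SE). The other 8, Stx5a, Stx6, Stx8, Stx16, Vamp4, Vamp7, Snap29 and Vti1b, spanned 0.12 to 0.43 log2 with F-test adjusted p between 0.432 and 0.833. Of them Snap29 lay below its ZT3 range in every ZT21 mouse, at −0.41 ± 0.18 log2 (SE, adjusted p = 0.232), and was singled out after its values were seen. Other probe sets of Snap29 did not share this fall, with ZT21 minus ZT3 at 0.29 ± 0.16 and −0.04 ± 0.29 log2 (SE).

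**Figure D3:**
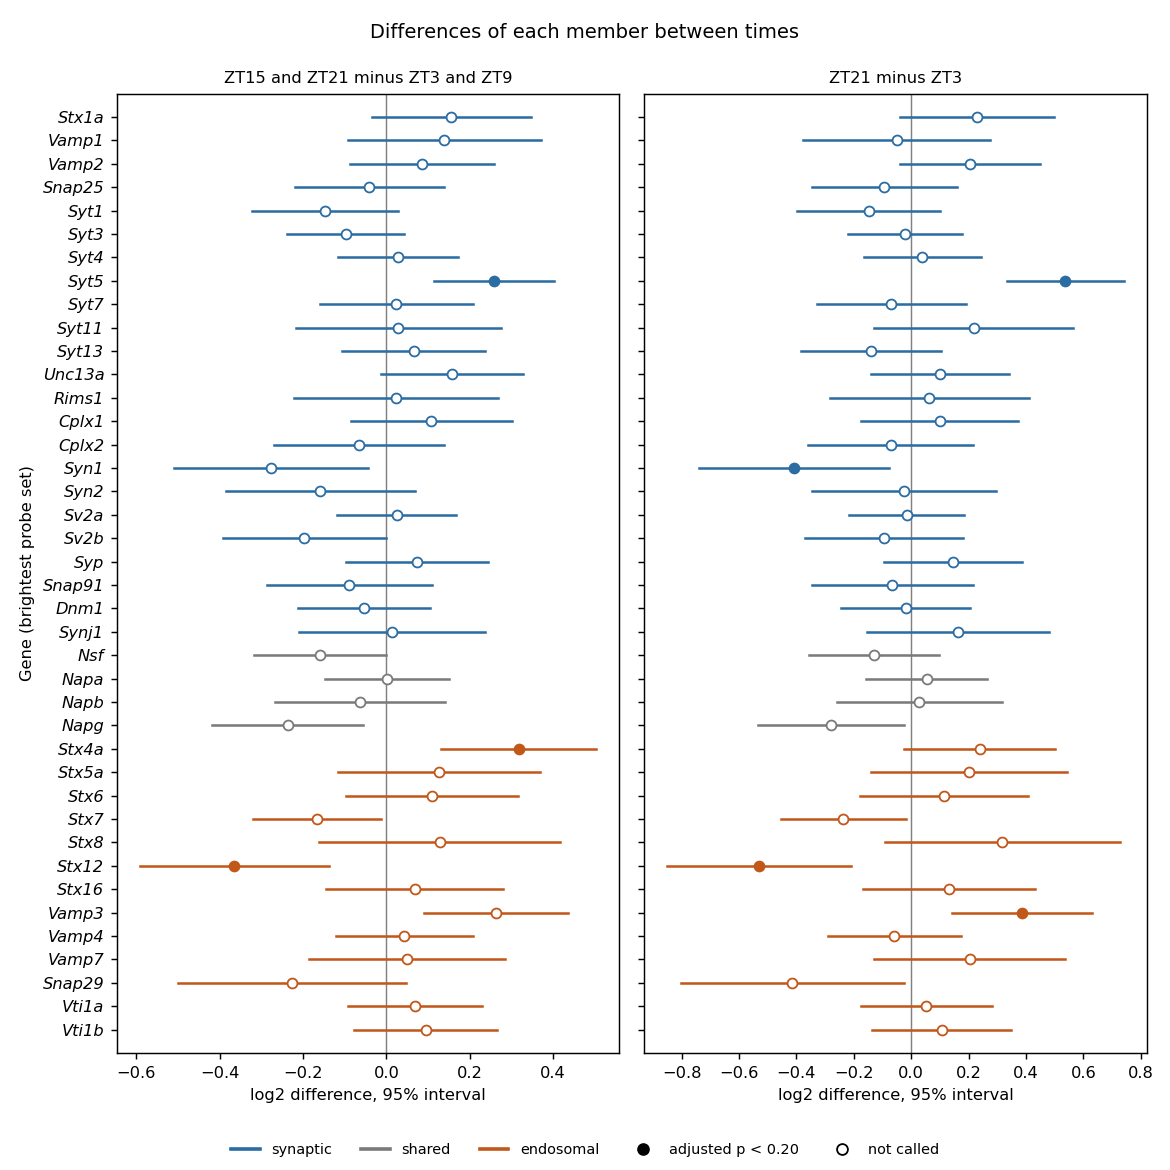
Difference of each member in log2 with its 95% interval, for the dark times minus the light times (left) and ZT21 minus ZT3 (right); filled points are called by limma at an adjusted p under 0.20. Syt5 and Stx4a in dark minus light and Syt5 and Vamp3 in ZT21 minus ZT3 lie to the right of 0, and Stx12 (both) and Syn1 (right panel) to the left.

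By their means alone, the synaptic and endosomal members were divided differently over the times of highest mean. This is a description, since 1 member passed the F-test and the highest time of most is uncertain. In 10 of the 31 genes with several tested probe sets did all of them peak at the same time. Of the 23 synaptic members 2 were highest at ZT3, 11 at ZT9, 8 at ZT15 and 2 at ZT21, while of the 13 endosomal members 1 was highest at ZT3, 2 at ZT9, 4 at ZT15 and 6 at ZT21. All 4 shared members were highest at ZT9. Over all genes ZT3 held 15.8% of the highest means, ZT9 32.2%, ZT15 23.8% and ZT21 28.2%. Over genes at least as bright as the dimmest member these shares were 9.08%, 35.1%, 26.4% and 29.4%. The median ZT21 minus ZT9 difference was −0.11 log2 over synaptic, 0.10 over endosomal and −0.22 over shared members, beside −0.03 over all probe sets. The median dark minus light difference was 0.02, 0.07 and −0.11, beside 0.01 over all probe sets. Over genes at least as bright as the dimmest member these 2 medians were −0.03 and 0.04, so the synaptic dark minus light median lay below that of such genes.

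Per mouse, the median deviation of the synaptic members minus that of the endosomal members was 0.00 ± 0.08 log2 at ZT3, 0.09 ± 0.12 at ZT9, 0.00 ± 0.05 at ZT15 and −0.12 ± 0.04 at ZT21 (SD, n = 3 each). All 3 ZT21 mice were negative, between −0.16 and −0.08, but ZT3 mouse 1 lay in the same range at −0.09. The distance from ZT9 to ZT21 compares with a spread between mice of the same time of 0.08 log2. It is given as a description, since the members were chosen with results of these data known. Beside it, the 8 neuronal markers, which include Snap25 and Syt1, had mean deviations of −0.07 to −0.03 at ZT3, −0.07 to 0.16 at ZT9, −0.02 to 0.14 at ZT15 and −0.17 to 0.15 at ZT21, with 0 of 8 called by the F-test of limma and 2 at an unadjusted p under 0.05. The mean deviation of the 6 tested microglial markers was 0.19 to 0.25 in the ZT21 mice, against −0.22 to 0.22 in the mice of the other times, with single markers at ZT21 between 0.028 (Cx3cr1) and 0.45 (Tyrobp) above their own means, and 2 of them were called higher at ZT21 than at ZT3. Over all marker lists 7 of 58 genes (12.1%) were called in that contrast, beside 12.3% of all probe sets. The 3 tested endothelial markers had mean deviations of 0.13 to 0.30 in the ZT21 mice, against −0.49 to 0.15 in the others. The blood and olfactory bulb lists, with 1 tested gene each, were below 0 in every ZT21 mouse. The part of these cell types in the result was not tested. In whole tissue fewer cells of a type cannot be told apart from less RNA in each.

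**Figure D4:**
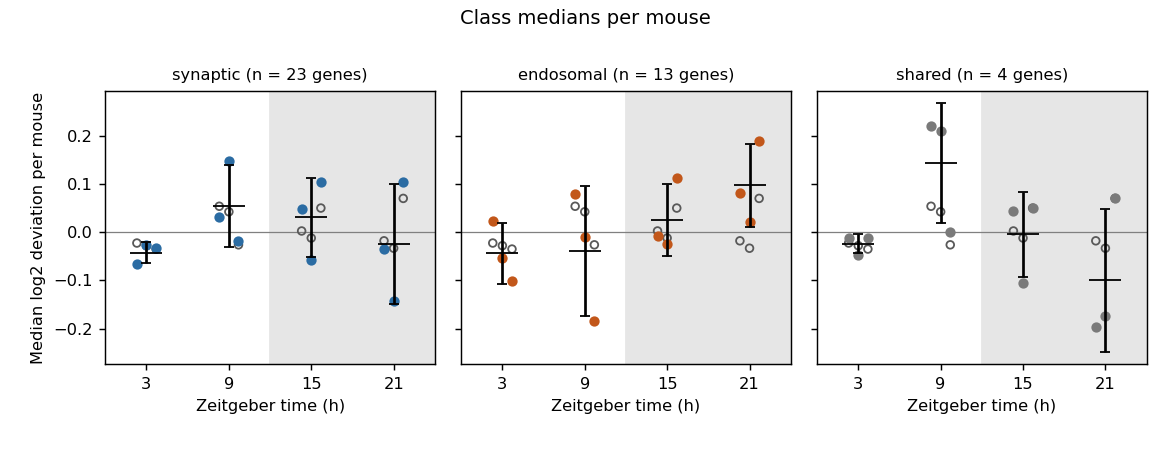
Median log2 deviation over the members of a class in each mouse (filled points), with mean and SD of the 3 mice (black), beside the median over all tested probe sets (open circles), against zeitgeber time in h with the dark period shaded. Endosomal medians were above 0 in all 3 ZT21 mice, and the synaptic medians at ZT21 ran from −0.14 to 0.10.

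Probe sets of the same gene did not always move together. The 40 members had 106 probe sets of their own, 97 of them tested, and in 31 genes more than 1 was tested. In 10 of these 31 genes all probe sets peaked at the same time, and in 13 all had the same sign in dark minus light. Between ZT21 and ZT3, 11 probe sets of 8 genes were called, 5 higher and 6 lower, and 7 of the 11 were not the brightest of their gene. They are 11.3% of the 97, near the 12.3% of all probe sets called, and are given as descriptions. Without the 3 arrays that stood apart 30 of the 97 were called (30.9%), beside 27.2% of all.

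Napb, the neuronal SNAP adaptor, was the clearest case, singled out after its values were seen. Its brightest probe set differed by 0.03 ± 0.13 log2 (SE) between ZT21 and ZT3, while another read 12.23, 12.38 and 12.17 at ZT3, 11.88, 12.43 and 12.18 at ZT9, 12.35, 12.16 and 11.64 at ZT15, and 10.91, 11.44 and 11.77 at ZT21. The ZT21 mice were below all ZT3 mice, by −0.89 ± 0.23 log2 (SE, adjusted p = 0.148). Within ZT9 and ZT15 the lowest arrays were ZT9 mouse 1 and ZT15 mouse 3, 2 of the 3 with the largest Gapdh end difference. The third of these, ZT21 mouse 3, was the highest of its time in both this probe set and the next. A further Napb probe set showed −0.98 ± 0.29 log2 (SE, adjusted p = 0.151) with the same low arrays. Without the 3 arrays both differences were larger, at −1.08 ± 0.16 and −1.22 ± 0.16 log2 (SE, adjusted p = 0.013 for both).

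Syt1 was lower by 0.60 log2 at ZT21 than at ZT3 in its second-brightest probe set (−0.60 ± 0.23, SE, adjusted p = 0.199). That probe set was also low in ZT9 mouse 1 and ZT15 mouse 3, at 12.05 and 12.03. ZT21 mouse 3 was at 12.34, above the other ZT21 mice at 11.98 and 11.87. Without the 3 arrays that difference was −0.74 ± 0.14 log2 (adjusted p = 0.019). Its brightest gave −0.15 ± 0.11 log2 and its dimmest 0.20 ± 0.14 log2. For Syt7, a slower calcium sensor, 2 probe sets were called higher (0.44 ± 0.16 and 0.41 ± 0.14 log2, SE, adjusted p = 0.185 and 0.174), and the brightest gave −0.07 ± 0.12 log2. On the 9 other arrays they gave 0.42 ± 0.10 and 0.33 ± 0.10 log2 (adjusted p = 0.031 and 0.068). In Nsf a second probe set was called lower, at −0.38 ± 0.13 log2 (adjusted p = 0.170), beside −0.13 ± 0.10 log2 in the brightest, and at −0.44 ± 0.11 log2 without the 3 arrays (adjusted p = 0.042).

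**Figure D5:**
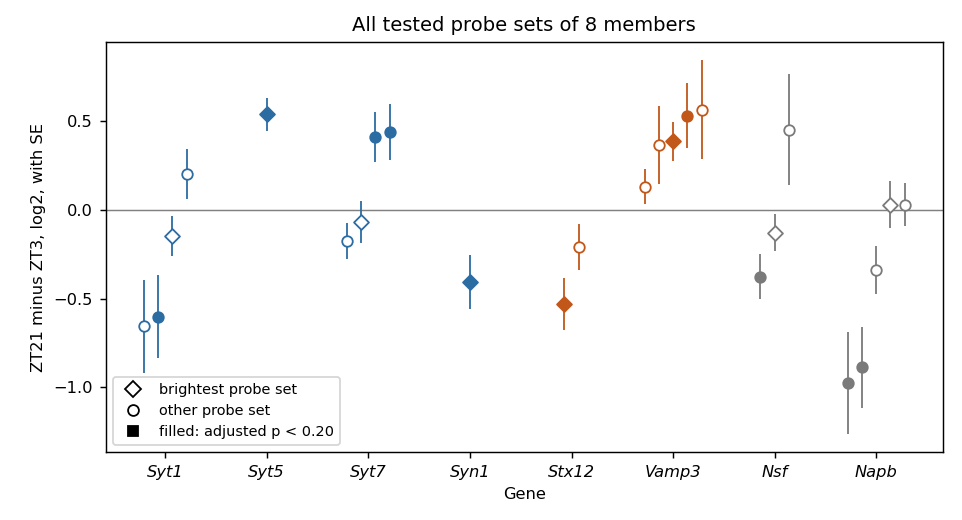
ZT21 minus ZT3 difference in log2, with its SE, of every tested probe set of the 8 members with at least 1 called; diamonds are the brightest probe set of a gene and filled symbols have an adjusted p under 0.20. All 5 of Vamp3 lie above 0, while those of Napb lie between −0.98 and 0.03 and those of Syt1 between −0.66 and 0.20.

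Of 102 further genes of vesicle fusion and recycling, 91 had a tested probe set, and their median distance between highest and lowest time was 0.23 log2. The F-test called 1 of them, Synj2, a second synaptojanin, which spanned 0.62 ± 0.15 log2 (SE) with means of 8.95, 8.34, 8.95 and 8.52 in the order of times (adjusted p = 0.181). Between ZT15 and ZT3, 2 were higher, the ribbon-type complexin Cplx3 (0.51 log2, adjusted p = 0.195) and the active zone gene Rims4 (0.59 log2, adjusted p = 0.163). These 2 are 2.20% of the 91, beside 2.64% of all probe sets, and the F-test call is 1.10%, beside 2.01%. Between ZT21 and ZT3, 5 were higher, Cplx3 (0.57), Rims4 (0.47), Doc2a (0.42), Ppfia3 (0.43) and Ap2s1 (0.37 log2), and 2 were lower, Stxbp5 (−0.40) and Synj2 (−0.43 log2), with adjusted p between 0.150 and 0.177. These 7 are 7.69% of the 91, below the 11.4% of all genes. On the 9 other arrays the F-test called 17 of the 91 (18.7%, beside 24.5% of all probe sets) and dark minus light 9 (9.89%, beside 17.2%). ZT15 minus ZT3 called 0 (beside 1.56%), ZT21 minus ZT9 23 (25.3%, beside 27.9%) and ZT21 minus ZT3 23 (25.3%, beside 27.2%). In dark minus light and between ZT21 and ZT9 0 were called by limma, and 8 and 9 had an unadjusted p under 0.05. By time of highest mean the 91 genes divided into 7 at ZT3, 47 at ZT9, 19 at ZT15 and 18 at ZT21. By list, the 7 calls between ZT21 and ZT3 comprised 4 of 23 release and active zone genes, 2 of 22 retrieval genes, 1 of 13 SNARE regulators, 0 of 18 other SNAREs and 0 of 15 other synaptic vesicle genes, of which 0 and 2 had an unadjusted p under 0.05. Ppfia3, a liprin of the active zone, and Stxbp5, a tomosyn that holds SNAREs back, were named for their calls after the values were seen.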

How the data were processed

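RNA of the prefrontal cortex of single mice was measured on 12 arrays. The deposited unit is intensity: the authors summarised the scans as GCRMA expression values per probe set on a linear scale and took detection calls from MAS 5.0, and the deposited table gives 45101 probe sets, 64 of them controls, without the calls. A genome build for the arrays is not given in the sources used here. No scan date or batch was given.

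Values were taken as log2 without a floor. Probe sets with a mean of at least 5 (24075 of 45037 that are not controls) were tested with limma 3.58.1 in R 4.3.3, by the moderated F-test and by 4 two-sided contrasts of 1 fit over all 12 arrays, with Benjamini-Hochberg adjustment over all of them and a threshold of 0.20. The study used SAM at that rate, for which limma stands in here. Gene names came from the platform annotation, in which 34945 probe sets carry 1 symbol, 932 several and 9160 none, and promoters from RefSeq for GRCm38.p6. The number of arrays limits the precision. The calculation was tested on simulated data. Python 3.11.15 with pandas 2.3.3 made the tables and matplotlib 3.10.9 the figures.

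Values were given per mouse for members called in any test, for the 6 synaptic, 5 endosomal and 2 shared members with the smallest F-test p, and for Snap25, Stx1a, Vamp2 and Syt1, and for 5 further lists at most 3 genes each with the smallest F-test p. The members and lists were chosen with earlier results of these data known. Marker lists, written from general knowledge, covered neurons, excitatory neurons, interneurons, astrocytes, myelin, oligodendrocyte precursors, microglia, endothelium, choroid plexus, blood, meninges, striatum and olfactory bulb. Alternatives were 2 other normalizations, 2 other filters, an intensity trend, weights per array, a block for the replicate number, each array left out, a threshold of 0.05 and the probe set with the smallest p. Leaving out 3 arrays together was chosen after seeing the data.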

Additional observations from a re-analysis of the deposited data

How the results depend on the processing

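With 3 mice per time and differences mostly under 0.5 log2, the calls at 0.20 depended on single arrays and settings, and the cause was not tested beyond the settings themselves. By the F-test 1 member was called as deposited, 7 after quantile normalization (9.30% of all probe sets then), 2 with a mean of at least 7 (8.38%), 23 with array weights (60.6%), 0 at an adjusted p under 0.05, 11 without the 3 arrays (24.5%) and 0 to 7 with each array left out. In dark minus light 3 were called, and 9 after quantile normalization (12.1%), 1 with each array centred on its median (1.60%), 1 without a filter (0.440%), 5 with a mean of at least 7 (9.60%), 14 with array weights (33.1%), 0 at 0.05, 11 without the 3 arrays (17.2%) and 0 to 8 with each array left out. The ZT15 minus ZT3 count of 0 became 5 with array weights (19.1%). The ZT21 minus ZT9 count of 0 became 8 after quantile normalization (4.76%), 2 with a mean of at least 7 (3.87%), 18 with array weights (39.0%), 13 without the 3 arrays (27.9%) and 0 to 13 with each array left out. In ZT21 minus ZT3 4 were called, and 8 after quantile normalization (21.2%), 1 without a filter (0.564%), 21 with array weights (47.5%), 0 at 0.05, 8 by the probe set with the smallest p, 9 without the 3 arrays (27.2%) and 0 to 7 with each array left out. The deviations of same-numbered mice from the mean of their time correlated with r of −0.50 to 0.49 over 18 pairs, 6 of them over 0.1. Deviations among 3 mice of a time depend on each other, so these values cannot tell whether the numbers pair the mice. The main tests used no pairing. With the replicate block the F-test called 0 members (0.382% of all probe sets), dark minus light 0 (0.453%), ZT15 minus ZT3 0 (1.12%), ZT21 minus ZT9 0 (0.00415%) and ZT21 minus ZT3 1 (0.511%).

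Syt5 lost its F-test call without ZT3 mouse 2 or 3, ZT15 mouse 2, or ZT21 mouse 1 or 2 (adjusted p 0.103 to 0.418 over the 12 arrays left out). The 3 dark minus light calls were lost without any of 8 arrays, mice 2 and 3 of ZT3, ZT9 and ZT15 and mice 1 and 2 of ZT21 (highest adjusted p 0.380 for Syt5, 0.389 for Stx4a and 0.414 for Stx12). The 4 ZT21 minus ZT3 calls were lost without ZT3 mouse 2 or 3 or ZT21 mouse 1 or 2 (highest adjusted p 0.393 for Syt5, 0.435 for Stx12 and Vamp3 and 0.498 for Syn1), Vamp3 also without ZT21 mouse 3 and Syn1 without ZT15 mouse 1 or 2. Without those 4 arrays, each in turn, 4 to 28 of all probe sets were called, against 2962 with all arrays, and over all 12 left out in turn the Syt5 difference was 0.48 to 0.60 log2 and that of Stx12 −0.68 to −0.43. With the probe set kept, the 23 named differences of single members gave 460 comparisons over the other settings and the arrays left out. Of these 355 stayed the same, 63 were weaker, 42 stronger and 0 reversed. Most of the 23 were differences between the highest and the lowest time, picked from these data, so a change of sign was unlikely. Other probe sets of the same gene were not part of this count, and some of them had the opposite sign. Of all probe sets called, 69.3% were higher in dark as deposited and 52.3% after quantile normalization, 89.3% and 78.0% at ZT15 against ZT3, and 61.9% and 51.0% at ZT21 against ZT3. The synaptic minus endosomal difference in medians was −0.13 log2 for ZT21 minus ZT3 (−0.15 to −0.083 as each array was left out, the smallest without ZT21 mouse 1), −0.20 for ZT21 minus ZT9 (−0.22 to −0.16, and −0.14 over the mean of all probe sets of a gene) and −0.044 for dark minus light (−0.10 to −0.025, and −0.11), and for ZT15 minus ZT3 0.02, with −0.018 to 0.107 as each array was left out.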
